A study of Mus musculus with 70 samples.

Results

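The dorsomedial nucleus of the hypothalamus (DMH) was compared with 4 other hypothalamic nuclei in punch biopsies of adult mouse brain. All libraries whose labels named the DMH were taken, 4 of the 70 libraries in the series. They were set against the 10 libraries of the arcuate nucleus (ARH, n = 3), the ventromedial nucleus (VMH, n = 2), the paraventricular nucleus (PVH, n = 2) and the lateral hypothalamic area (LHA, n = 3), with each nucleus given equal weight. The comparison asks which genes set the DMH apart from its hypothalamic neighbours. Every group consisted of untreated C57BL/6 mice at postnatal day 56, and no group carried a transgene or received an agent. The mice were male and of the substrain C57BL/6NTac. Each library was made from punches pooled over several mice, several regions could come from the same mice, and punches were taken by position in thick frozen sections. A library can therefore hold tissue from next to the named nucleus, and the spread between libraries is a spread between pools. In such bulk samples fewer cells of a type and less RNA per cell cannot be told apart.

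The DMH lies between the VMH below and the thalamus and zona incerta above, close to the wall of the third ventricle. Its neurons take part in the control of feeding, thermogenesis, circadian behaviour and stress responses, and they send excitatory and inhibitory projections to the PVH, the preoptic area and the brainstem. Genes used as its markers encode peptides (Npvf, Grp, Cck, Prlh) and the proteins Ppp1r17, an inhibitor of protein phosphatases, and Prdm13, a zinc finger transcription factor of DMH neurons.

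Levels are in TPM, a unit of transcript abundance scaled for transcript length and for the total of each library. The total estimated count per library was between 14201960 and 19689276 over the 14 hypothalamic libraries, and between 14201960 and 17967693 in the DMH. Mitochondrial transcripts took 6.81% to 8.6% of the TPM in the DMH libraries and 5.55% to 10.27% in the other nuclei. No replicate of a nucleus was a copy of another, since the smallest chi-square per gene between replicates of the same nucleus was 6.01.

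The DMH label was first checked against its 6 markers, and the data went partly against it. Npvf, the precursor of the RFamide-related peptides, had 42.5, 17.3, 42.6 and 50.8 TPM in the 4 DMH libraries. It had 11.3 to 19.5 TPM in ARH, 59.6 and 123 TPM in VMH, and at most 1.97 TPM in PVH and LHA. Of the DMH libraries, 3 lay above all ARH libraries and replicate 2 within the ARH range, and all 4 lay above PVH and LHA and below both VMH libraries. On the log2(TPM + 0.5) scale used for all fold changes, Npvf was higher in the DMH than in the mean of the 4 nuclei by 2.62 ± 0.31 (SE), with a limma adjusted p of 0.0019. Without PVH it was 1.51 and still called (adjusted p = 0.0199).

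Ppp1r17 had 14, 3.52, 14.3 and 8.55 TPM in the DMH, 19.2 to 27.6 TPM in ARH, and 12.3 and 44.4 TPM in VMH. Prdm13 reached 2.14 TPM in the DMH, 3.64 TPM in ARH and 6.46 TPM in VMH replicate 2. Neither marker differed from the mean of the other nuclei (log2 differences of -0.07 ± 0.37 and -0.09 ± 0.32, adjusted p = 0.959 and 0.928), and the highest library of both was VMH replicate 2. Prlh, which encodes prolactin-releasing hormone, was listed at 0 in all 4 DMH libraries, against 22.8 to 33.7 TPM in ARH and 7.07 TPM in VMH replicate 2. The Prlh difference of -1.93 ± 0.49 did not pass the test (adjusted p = 0.0592). It was -2.42 without VMH replicate 1 and -1.44 without VMH replicate 2, fits that rest on 1 VMH library. Without DMH replicate 4 the adjusted p was 0.156.

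Grp, the precursor of gastrin-releasing peptide, had 18.2, 7.74, 15.8 and 13.3 TPM in the DMH. It lay at 8.47 TPM or below in every other library except VMH replicate 2, which had 28.4 TPM. Its difference of 1.02 ± 0.36 did not pass the test (adjusted p = 0.173). It was 1.34 without VMH replicate 2, its highest library, in a fit that rests on 1 VMH library. Without DMH replicate 1 the adjusted p was 0.366. Cck, which encodes cholecystokinin, had 172, 248, 89.1 and 126 TPM in the DMH and 446 and 423 TPM in PVH. Its difference of 1.09 ± 0.32 did not pass the test (adjusted p = 0.0932). It was 1.26 without VMH replicate 2 and 0.84 without DMH replicate 2 (adjusted p = 0.24 for the latter). In all, 1 of 6 DMH markers was called higher, against 2.03% of all genes tested, and none of the 6 had its highest mean in the DMH. Across the 6 markers the median log2 difference was 0.48, where all 16848 tested genes had a median of 0.026.

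**Figure D1:**
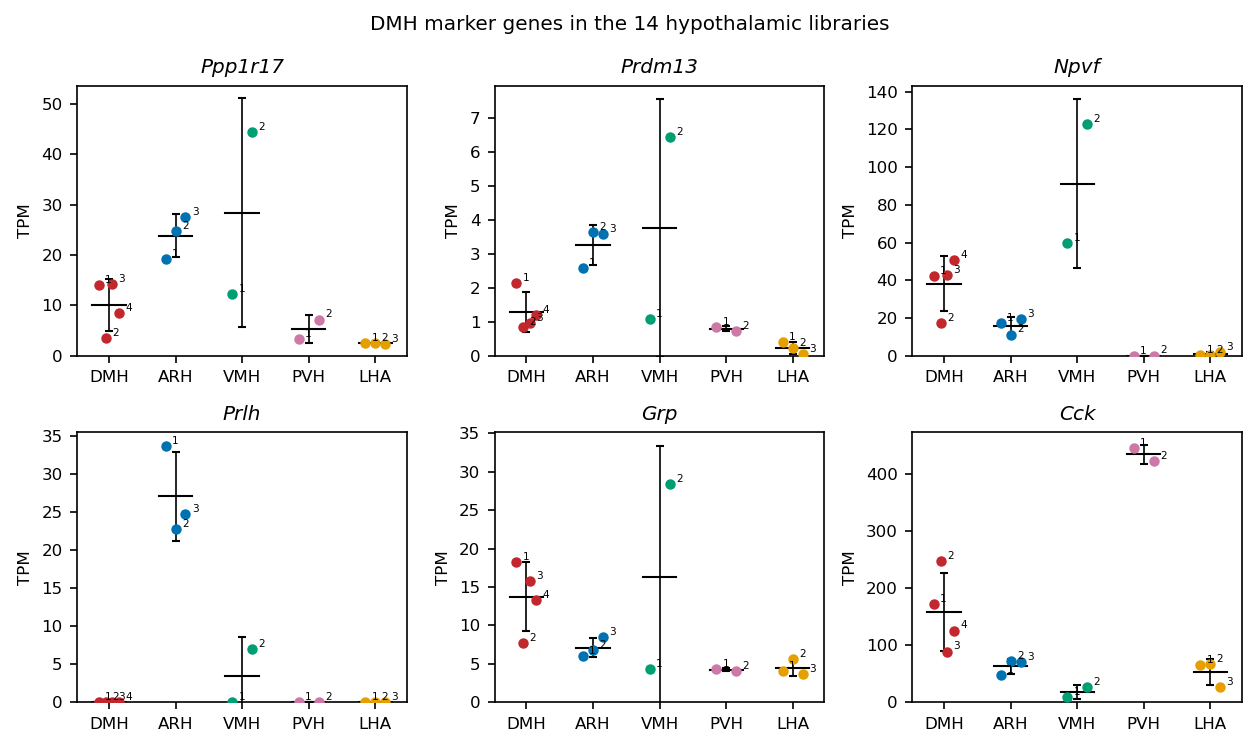
TPM (vertical axis) of the 6 DMH marker genes in each library of the 5 nuclei (horizontal axis). Points are libraries with their replicate number, lines are means and bars are SDs. VMH replicate 2 had the highest Ppp1r17, Prdm13, Npvf and Grp of the 14 libraries, PVH had the highest Cck, and Prlh was listed at 0 in all DMH libraries.

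Markers of the neighbouring nuclei were then summed in each library. ARH markers (Pomc, Agrp, Ghrh, Tac2, Kiss1, Tbx3) summed to 51.8 to 89.6 TPM in the DMH, against 747 to 1120 TPM in ARH. VMH markers summed to 122 to 141 TPM in the DMH and 216 to 264 TPM in VMH, and they also reached 261 to 288 TPM in ARH. The defining VMH gene Nr5a1, a nuclear receptor known as steroidogenic factor 1, was at most 0.346 TPM in the DMH. LHA markers summed to 2070, 545, 2450 and 1580 TPM in the DMH, between the PVH libraries (112 and 168 TPM) and the LHA libraries (4920 to 7260 TPM). DMH replicate 2 was the lowest DMH library for this sum, and the VMH libraries reached 4430 and 4890 TPM.

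DMH replicate 2 stood apart from the other DMH libraries in several of these lists. Its thalamus markers summed to 713 TPM, against 405, 323 and 510 TPM in the other DMH libraries, and its oligodendrocyte markers to 6040 TPM, against 3840 to 4740 TPM. Over all tested genes its profile correlated at 0.9778 with the mean of the other DMH libraries, at 0.9731 with PVH, at 0.9717 with LHA and at 0.9637 with VMH. Replicates 1 and 3 were closer to VMH (0.9733 and 0.9709) than to PVH (0.9699 and 0.9679), and replicate 4 was near both (0.971 and 0.9715). These correlations are across genes, between 1 DMH library and the mean profile of a nucleus, and are given without a test.

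**Figure D2:**
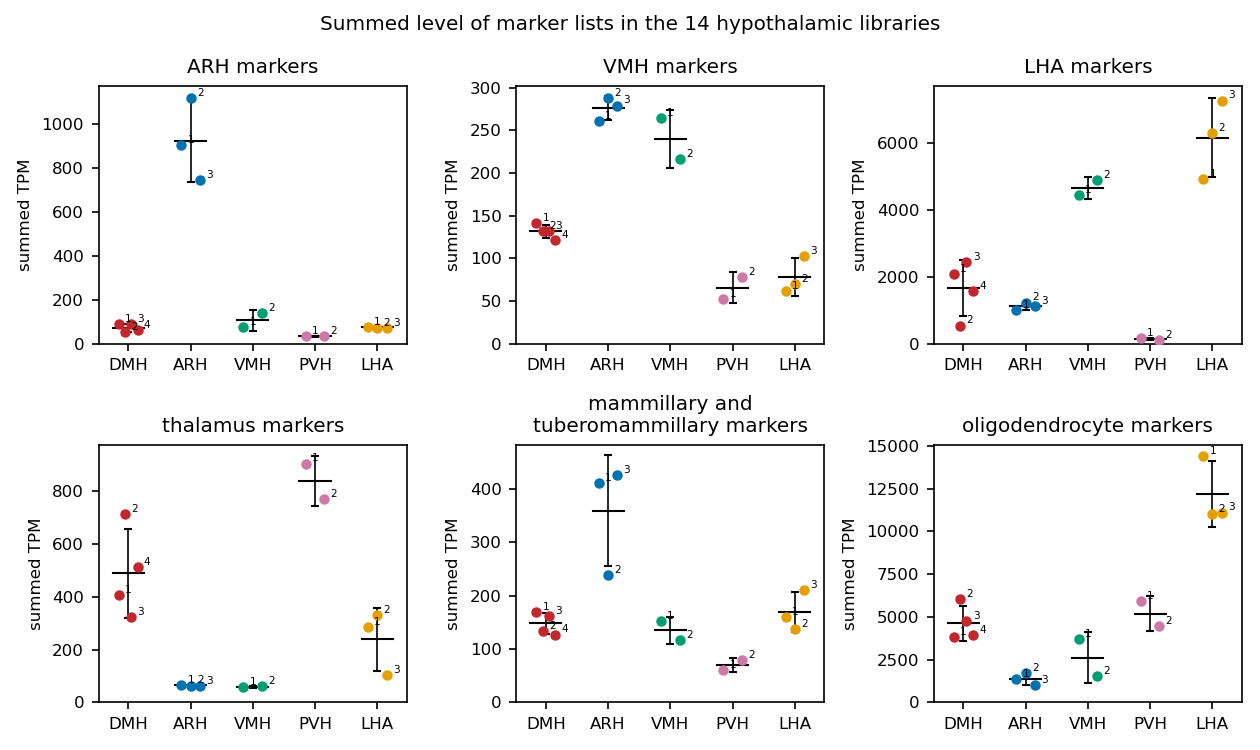
Summed TPM (vertical axis) of 6 marker lists in each library of the 5 nuclei (horizontal axis). Points are libraries with their replicate number, lines are means and bars are SDs. Thalamus markers were at 323 to 713 TPM in the DMH and 770 to 903 TPM in PVH, but at most 66.8 TPM in ARH and VMH. In LHA they were at 284, 329 and 103 TPM, so that the DMH and LHA ranges overlapped.

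Of 16848 genes tested, 342 were higher in the DMH than in the mean of the 4 nuclei (2.03%) and 167 were lower (0.991%). The median log2 fold change was 0.49 among the higher genes and -0.77 among the lower genes, and 66 and 54 of them changed by more than 1. Of the 342 higher genes, 147 had their highest mean in PVH, 144 in the DMH and 41 in LHA. Of the 167 lower genes, 122 had their highest mean in ARH and 78 had their lowest mean in the DMH. Over all tested genes the DMH had the highest of the 5 means for 11.9% and the lowest for 6.75%, the smallest share of the 5 nuclei on both sides, with the largest number of libraries behind its mean.

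The counts depended on single libraries and on the ARH. Without DMH replicate 1 there were 173 higher and 95 lower genes, without DMH replicate 2 there were 197 and 72, and without DMH replicate 4 there were 104 and 56. Leaving out DMH replicate 3 left 86 lower genes, LHA replicate 1 left 109, and PVH replicate 2 left 110, while PVH replicate 1 left 221 higher genes. VMH replicate 2 had the highest Ppp1r17, Prdm13, Npvf and Grp of the libraries compared, though not the highest Cck or Prlh, and fits without it rest on 1 VMH library. When the ARH was left out as a nucleus, 42 genes were higher and 11 lower, and when the PVH was left out, 810 were higher and 441 lower. Among 69 called genes covered by the naming rule, 52 lost the call or turned without the ARH, 14 without VMH, 6 without LHA and 5 without PVH.

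The shares of all genes called also differed between tools, and the lists of genes given later are to be read against them. With edgeR on the estimated counts, 671 of 15880 genes were higher (4.23%) and 395 lower (2.49%), and with DESeq2 840 were higher (5.29%) and 491 lower (3.09%). The 197 and 72 genes called without DMH replicate 2 were 1.17% and 0.427% of those tested.

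**Figure D3:**
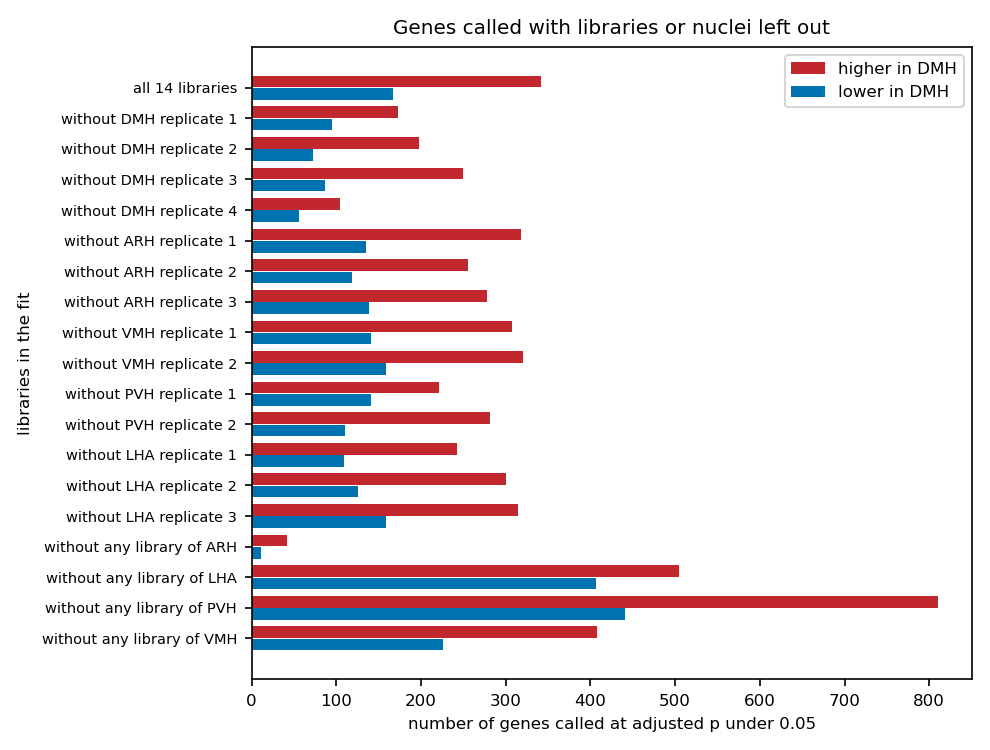
Number of genes called higher (red) and lower (blue) in the DMH (horizontal axis) with all 14 libraries, with each library left out, and with each other nucleus left out (vertical axis). Calls fell to 42 higher and 11 lower genes without the ARH and rose to 810 and 441 without the PVH.

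**Figure D4:**
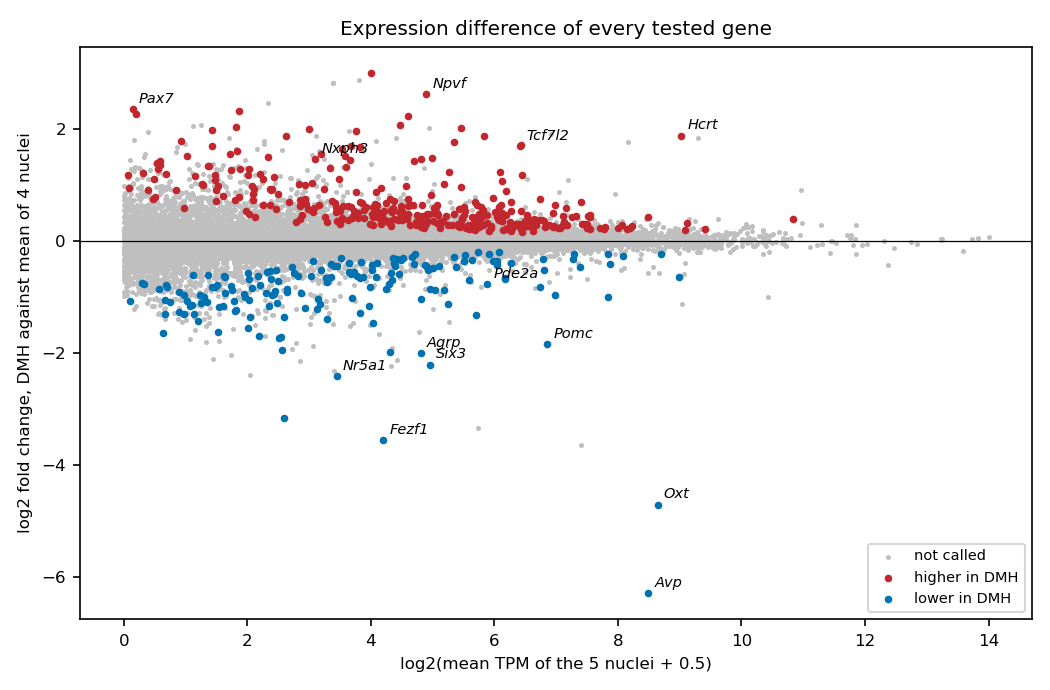
Log2 fold change between the DMH and the mean of the 4 other nuclei (vertical axis) against the log2 of the mean TPM of the 5 nuclei plus 0.5 (horizontal axis). Each point is a gene, in red or blue where called and grey where not. Npvf was among the highest called genes at 2.62, and Avp, Oxt and Fezf1 the lowest at -6.29, -4.71 and -3.56.

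Compared with single nuclei, the DMH differed least from PVH and most from ARH and LHA, each test having its own number of libraries. Against PVH, 184 genes were higher (1.09%) and 128 lower (0.76%). Against VMH, 457 were higher (2.71%) and 314 lower (1.86%). Against ARH, 1892 were higher (11.2%) and 2274 lower (13.5%), and against LHA, 2614 were higher (15.5%) and 758 lower (4.5%). A total of 6366 genes differed between the DMH and at least 1 other nucleus. The 342 higher genes included 306 that were also higher than ARH in its own comparison, 213 than VMH, 188 than LHA and 50 than PVH.

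A gene was called above or below each nucleus by the largest of its 4 pairwise p-values, with that value adjusted over all genes tested. By this rule limma called 0 genes in either direction, although genes such as Nxph3, Pax7, Crhbp and Six3 passed all 4 single pairwise tests. At an unadjusted p under 0.05, 42 genes lay above and 16 below each nucleus. With edgeR on the estimated counts 0 genes were called in either direction, and DESeq2 called 4 above (Col11a1, Crhbp, Nxph3, Pax7) and 2 below. Every DMH library lay above every other hypothalamic library for 80 genes (0.475%) and below for 21 genes (0.125%). Of these, 44 were among the higher genes and 18 among the lower genes.

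Nxph3 and Pax7 came closest to a call by this rule (adjusted p = 0.129 for both). Nxph3, on chromosome 11 from 95509845 to 95514570 (GRCm38), encodes neurexophilin 3, a secreted ligand of neurexins at synapses. It had 17.5, 17.1, 15.2 and 17.0 TPM in the DMH and 4.17 to 9.05 TPM in the other 10 libraries. The DMH libraries were thus close together. Their place above all others was a condition for naming the gene and is no separate result. Nxph3 was higher by 1.46 ± 0.12 than the mean of the 4 nuclei (adjusted p = 0.000174), with pairwise differences between 1.09 (LHA) and 1.76 (ARH).

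Pax7, a paired-box transcription factor on chromosome 4 from 139737062 to 139833528 (GRCm38), had 2.17, 2.57, 2.72 and 2.82 TPM in the DMH. The highest other libraries were VMH replicate 2 at 0.443 TPM and LHA replicate 3 at 0.440 TPM, and it was listed at 0 in both PVH libraries and ARH replicate 1. The difference was 2.36 ± 0.21 (adjusted p = 0.000338), and the pairwise differences ran from 2.13 (VMH) to 2.61 (PVH). Leaving out any 1 library kept the adjusted p at 0.00221 or below for Nxph3 and at 0.00481 or below for Pax7.

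Crhbp, which encodes the binding protein of corticotropin-releasing hormone, had 17.6, 17.3, 19.2 and 19 TPM in the DMH. The other libraries reached at most 11.5 TPM, in ARH replicate 1, and the lack of overlap was again a condition for naming the gene. Its difference was 1.55 ± 0.16 (adjusted p = 0.000806). Ebf3, a helix-loop-helix transcription factor, had 23.1 to 24.7 TPM in the DMH and 4.09 to 16.5 TPM elsewhere, with a difference of 1.64 ± 0.23 (adjusted p = 0.00388). Nr4a2, an orphan nuclear receptor known as Nurr1, had 13.5 to 22.9 TPM in the DMH and 1.87 to 11.7 TPM elsewhere (2.00 ± 0.27, adjusted p = 0.00327).

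Without the ARH as a nucleus Ebf3 was not called (1.47, adjusted p = 0.0578), while Nxph3, Pax7, Crhbp and Nr4a2 were.

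The remaining 7 of the 12 largest differences among higher genes without overlap were smaller or rested on lower levels. Neurod6 and Neurod2, neuronal basic helix-loop-helix factors, had means of 3.77 TPM and 2.31 TPM in the DMH, with differences of 1.79 and 1.35. Cbln2, a secreted organizer of synapses, had 56.9 to 61.9 TPM in the DMH and 17.9 to 40.0 TPM elsewhere (1.02 ± 0.16). Col11a1, a fibrillar collagen chain, had 26.6 to 30.5 TPM and at most 21.6 TPM elsewhere (0.94 ± 0.16). The homeobox gene Emx2 (1.18), the nicotinic receptor subunit Chrnb4 (0.94) and the cochaperone Dnajc22 (1.21) complete the list. Like Pax7, Chrnb4 and Dnajc22 passed the filter of 0.5 TPM only through their DMH level, and Dnajc22 was not called with no filter. Emx2 was not called without DMH replicate 4 (adjusted p = 0.0541), Chrnb4 not without replicates 2, 3 or 4 (0.0542 to 0.061), and Neurod2 not without replicates 1, 3 or 4 (0.0581 to 0.0791). Dnajc22 kept its call for 1 of the 14 libraries left out, with an adjusted p of up to 0.129. Cbln2, Col11a1, Neurod2 and Dnajc22 were not called without the ARH (adjusted p = 0.0518 to 0.182), and Dnajc22 not without VMH (0.0509) or LHA (0.0767).

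**Figure D5:**
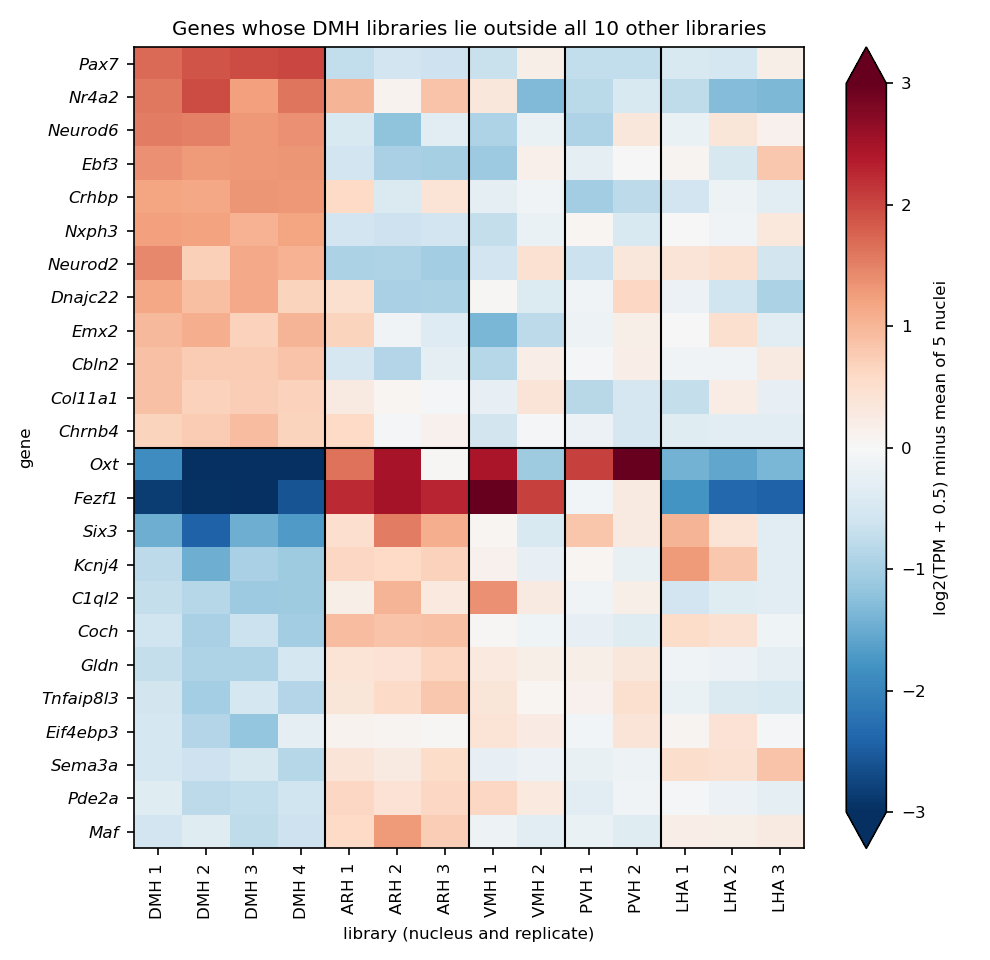
Log2(TPM + 0.5) minus the mean of the 5 nuclei (colour, limited to -3 to 3) for the 12 higher and 12 lower genes with the largest difference and no overlap between DMH and other libraries (vertical axis), in the 14 libraries (horizontal axis). By the choice of these genes, the 4 DMH columns are the reddest of each row above the black line and the bluest of each row below it.

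Among lower genes without overlap, Fezf1 had the smallest adjusted p. This zinc finger transcription factor of the developing VMH lies on chromosome 6 from 23245044 to 23248362 (GRCm38). It had 0.483, 0.405, 0.384 and 0.681 TPM in the DMH, 33.0 to 39.4 TPM in ARH, 62.0 and 28.6 TPM in VMH, 6.20 and 7.95 TPM in PVH and 0.818 to 1.55 TPM in LHA. The DMH libraries were close to those of LHA and far from the others, and the difference from the mean was -3.56 ± 0.19 (adjusted p = 3.85e-06). Against LHA alone the difference of -0.66 did not pass the test (adjusted p = 0.0731).

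Six3, a homeobox transcription factor of the anterior forebrain on chromosome 17, had 8.46, 4.14, 8.53 and 7.12 TPM in the DMH. Its other libraries had 17.7 to 71.5 TPM, above every DMH library as the choice of these genes required. The difference was -2.21 ± 0.26 (adjusted p = 0.0019), and all 4 pairwise differences passed their own tests, from -1.57 for VMH (adjusted p = 0.0392) to -2.81 for ARH (0.000113). Oxt, the oxytocin precursor, had 29.6, 1.11, 10.6 and 7.47 TPM in the DMH and 37.1 to 2080 TPM elsewhere, a difference of -4.71 ± 0.78 (adjusted p = 0.00895). Pde2a, a cyclic nucleotide phosphodiesterase, had 32.2 to 43.2 TPM in the DMH and 43.8 to 85.6 TPM elsewhere (-0.77 ± 0.09, adjusted p = 0.0019).

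The other lower genes of this kind were Kcnj4, an inwardly rectifying potassium channel (-1.35), C1ql2, a secreted synaptic protein (-1.16), Coch, an extracellular matrix protein (-1.02), and Gldn (-0.97), Tnfaip8l3 (-0.93), Eif4ebp3 (-0.89), Sema3a (-0.78) and Maf (-0.72). Sema3a encodes a secreted guidance cue, Eif4ebp3 a repressor of translation initiation and Maf a leucine zipper transcription factor. Coch had 5.29 to 7.34 TPM in the DMH and 8.77 to 22.0 TPM elsewhere. Each of the 12 lower genes kept its call when any 1 library was left out, with adjusted p of at most 0.0479. Without the ARH as a nucleus 8 of them lost the call, namely C1ql2 and Sema3a (adjusted p = 0.0518 for both), Coch (0.0615), Oxt (0.0624), Tnfaip8l3 (0.0759), Eif4ebp3 (0.0768), Maf (0.103) and Kcnj4 (0.113).

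Transcription factors that pattern the hypothalamus contained called genes in both directions. Of 69 such factors, 68 were tested, 12 were higher and 11 lower, with a median log2 difference of 0.16, against 2.03% higher and 0.991% lower of all genes tested. The counts were 20 and 10 with edgeR and 22 and 12 with DESeq2. Without DMH replicate 2 there were 8 higher and 8 lower. Barhl1, a homeobox factor of the mammillary and subthalamic region, had 5.14 to 7.58 TPM in the DMH, 3.92 to 10.9 TPM in LHA and at most 3.18 TPM elsewhere (2.03 ± 0.33, adjusted p = 0.00879). Foxa1, a forkhead factor, had 1.99 to 3.03 TPM in the DMH, 3.86 to 5.39 TPM in LHA and at most 0.186 TPM in VMH and PVH (1.02 ± 0.24, adjusted p = 0.0419). Its call was lost when any of 10 libraries was left out, with an adjusted p of up to 0.122, and also without VMH (0.257) or PVH (0.179) as nuclei. Of 6 mammillary and tuberomammillary markers 2 were higher, Foxa1 among them, against 2.03% of all genes tested. The summed level of the 6 was 127 to 169 TPM in the DMH, 239 to 425 TPM in ARH and 137 to 211 TPM in LHA. The part of posterior tissue in these differences was not tested.

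Lower factors besides Fezf1 and Six3 included Nr5a1 and Rax. Nr5a1 had 0.0682 to 0.346 TPM in the DMH, 16.8 to 45.8 TPM in ARH and VMH and at most 0.0694 TPM in PVH and LHA (-2.42 ± 0.19, adjusted p = 9.99e-05). Rax, a homeobox factor of tanycytes, had at most 0.0865 TPM in the DMH and 11.1 to 22.6 TPM in ARH (-1.56 ± 0.21, adjusted p = 0.00303). Both were also low in PVH and LHA. DESeq2 called both, and edgeR called neither (adjusted p = 0.103 for Nr5a1 and 0.0978 for Rax). Without the ARH, Rax was at -0.44 and lost its call (adjusted p = 0.464), and without VMH, Nr5a1 was at -1.38 and called (0.0021). Sim1, a factor required for PVH neurons, had 2.98 to 4.90 TPM in the DMH, at most 1.59 TPM in ARH and LHA and 2.13 to 5.79 TPM in VMH and PVH, and it did not pass the test (0.88 ± 0.23, adjusted p = 0.0653). Without PVH replicate 2 it passed (1.04, adjusted p = 0.0226).

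Thalamic markers were the list with the largest share of higher genes. Of 7 such genes, 5 were higher (Tcf7l2, Prkcd, Ramp3, Tnnt1 and Synpo2) and none lower, with a median log2 difference of 1.7. Over all genes tested 2.03% were higher and 0.991% lower. Without DMH replicate 2, which had the highest sum of these markers among DMH libraries, 2 were higher, against 1.17% of all genes. All 7 had an unadjusted p under 0.05, and edgeR and DESeq2 each called 6 higher (4.23% and 5.29% over all genes). Tcf7l2, a transcription factor of the Wnt pathway that is high in thalamic neurons, had 105, 168, 98.7 and 145 TPM in the DMH and 221 and 234 TPM in PVH. It had 15.4 to 43.8 TPM in ARH, VMH and LHA. The DMH libraries thus lay between PVH and the rest, and the difference from the mean was 1.70 ± 0.22 (adjusted p = 0.00275). It was 1.40 and not called without the ARH (adjusted p = 0.0578), and 2.55 without PVH.

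Prkcd, a protein kinase C, had 105, 207, 86.6 and 134 TPM in the DMH, 201 and 159 TPM in PVH and 29.7 to 132 TPM in LHA (1.72 ± 0.34, adjusted p = 0.0195). Tnnt1, a troponin, had 68.3, 114, 33.3 and 62.3 TPM in the DMH and 218 and 143 TPM in PVH (1.87 ± 0.35, adjusted p = 0.0161). DMH replicate 2 was the highest DMH library of both. Prkcd was not called without DMH replicate 2 or 4 (adjusted p = 0.0687 and 0.0724), Tnnt1 not without replicates 1, 2 or 4 (0.0522 to 0.0604) and Ramp3 not without replicate 4 (0.0567). The vesicular glutamate transporter Slc17a7, which is abundant in thalamus and cortex, had 33.3, 51.7, 15.8 and 31.2 TPM in the DMH, 50.5 and 48.3 TPM in PVH, 31.8, 32.9 and 5.20 TPM in LHA and at most 1.99 TPM in ARH and VMH. The DMH overlapped LHA, and DMH replicate 2 lay above both PVH libraries. Slc17a7 (2.08 ± 0.45, adjusted p = 0.0288) kept its call for 7 of the 14 libraries left out, with an adjusted p of up to 0.0956. Prkcd, Tnnt1, Ramp3 and Slc17a7 were also not called without the ARH (adjusted p = 0.161 to 0.303) or without VMH (0.0783 to 0.123). The part of thalamic tissue in the higher genes was not tested.

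Of 72 neuropeptide genes, 55 were tested, 2 were higher (Npvf and Hcrt) and 8 lower, with a median log2 difference of -0.15, against 2.03% and 0.991% of all genes tested. Leaving out DMH replicate 2 left 2 higher and 4 lower. Hcrt, the orexin precursor of LHA neurons, had 451, 120, 388 and 281 TPM in the DMH, 13.2 to 47.7 TPM in ARH, 659 and 939 TPM in VMH, at most 0.784 TPM in PVH and 915 to 1890 TPM in LHA. The DMH lay below VMH and LHA in every library and above ARH and PVH. Its call (1.88 ± 0.39, adjusted p = 0.0239) came with a pairwise difference of 8.12 from PVH and turned to -0.21 when PVH was left out. It was lost without DMH replicates 1, 3 or 4 or PVH replicate 2 (adjusted p = 0.0525 to 0.0889) or the ARH (0.15). Pmch, the precursor of melanin-concentrating hormone in the same area, had 1460, 358, 1880 and 1170 TPM in the DMH and 3870 to 5180 TPM in LHA, and it did not pass the test (0.32 ± 0.44, adjusted p = 0.784).

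Avp, the vasopressin precursor, had 18.8, 0.946, 0 and 1.81 TPM in the DMH and 7.61 to 1900 TPM elsewhere, with the lowest other level in VMH replicate 2 (-6.29 ± 1.06, adjusted p = 0.00958). Levels of Avp within ARH ran from 228 to 1900 TPM and within VMH from 7.61 to 409 TPM. Agrp, the orexigenic agouti-related peptide, had at most 1.64 TPM in the DMH and 87.7 to 200 TPM in ARH (-2.01 ± 0.32, adjusted p = 0.00761). Pomc, the melanocortin precursor, had 3.99 to 6.08 TPM in the DMH and 427 to 672 TPM in ARH (-1.84 ± 0.24, adjusted p = 0.00303). Both calls ended without the ARH, where Agrp was at -0.49 (adjusted p = 0.593) and Pomc at -0.21 (0.799). Avp was at -5.74 without the ARH and not called (0.0839). PVH and LHA were near the DMH for Agrp and Pomc, where Agrp was at most 2.10 TPM and Pomc at most 5.43 TPM. Ucn3, the precursor of urocortin 3, was called lower (-1.94 ± 0.46, adjusted p = 0.0454) and kept that call for 3 of the 14 libraries left out. It was not called without the ARH (adjusted p = 0.0768) or PVH (-1.03, adjusted p = 0.247), nor with edgeR (adjusted p = 0.167).

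Of 78 receptors of peptides, 67 were tested, 3 were higher (Crhr1, Ramp3 and Vipr2) and 3 lower (Glp1r, Mc3r and Sstr1), with a median of -0.03. Over all genes tested 2.03% were higher and 0.991% lower. Without DMH replicate 2 there was 1 higher and none lower, while edgeR called 10 higher and 7 lower (4.23% and 2.49% over all genes) and DESeq2 11 and 12 (5.29% and 3.09%). Mc3r, a melanocortin receptor, had 2.33, 1.52, 2.44 and 2.45 TPM in the DMH, 10.7 to 13.8 TPM in ARH and 6.20 and 5.86 TPM in VMH (-0.68 ± 0.14, adjusted p = 0.0238). Levels in PVH and LHA were close to those of the DMH, at 0.887 to 2.58 TPM. Glp1r, the receptor of glucagon-like peptide 1, had 2.72 to 3.11 TPM in the DMH and 7.53 to 9.46 TPM in ARH (-0.55 ± 0.13, adjusted p = 0.0454). Vipr2, a receptor of vasoactive intestinal peptide, had 3.87 to 6.26 TPM in the DMH and 8.26 and 7.27 TPM in PVH (0.84 ± 0.19, adjusted p = 0.035). Mc3r was not called without DMH replicates 1, 2 or 4 (adjusted p = 0.0559 to 0.0696). All 6 lost the call without the ARH, where Mc3r was at -0.15, Glp1r at -0.25, Sstr1 at -0.18, Vipr2 at 0.49, Crhr1 at 0.40 and Ramp3 at 1.30 (adjusted p = 0.161 to 0.756). Crhr1, Vipr2, Ramp3 and Mc3r also lost it without VMH, and Crhr1 without PVH. Glp1r kept its call for 3, Vipr2 for 5, Sstr1 for 4 and Crhr1 for 2 of the 14 libraries left out.

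Of 22 genes for transmitter synthesis and transport, 18 were tested, 3 were higher, Slc17a6 and Slc17a7 among them, and 1 was lower (Slc6a3), with a median of 0.01. Without DMH replicate 2 there was 1 in each direction, and edgeR called 6 higher and 1 lower, against shares over all genes of 2.03% and 0.991% with limma and 4.23% and 2.49% with edgeR. Slc17a6, a vesicular glutamate transporter, had 179, 220, 147 and 214 TPM in the DMH and 165 and 210 TPM in PVH. It had 82.1 to 145 TPM in ARH, VMH and LHA (0.58 ± 0.14, adjusted p = 0.0443). It kept its call for 4 of the 14 libraries left out and lost it without the ARH (adjusted p = 0.183) or LHA (0.105). Slc6a3, the dopamine transporter, had 0.393 to 0.986 TPM in the DMH, 5.54 to 7.91 TPM in ARH and 1.76 to 4.02 TPM in LHA (-1.18 ± 0.20, adjusted p = 0.00958). Without the ARH, Slc6a3 was at -0.65 and not called (adjusted p = 0.275).

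Genes of energy balance signalling had 3 higher and 3 lower among 40 tested of 41, with a median of -0.03, where 2.03% and 0.991% of all genes were called. These became 2 higher and none lower without DMH replicate 2. Bdnf, a neurotrophin that restrains feeding, had 8.10 to 10.2 TPM in the DMH, 3.79 to 5.51 TPM in PVH and LHA and 5.68 to 9.03 TPM in ARH and VMH (0.62 ± 0.13, adjusted p = 0.0238). Cpe, a peptide-processing carboxypeptidase, had 2050 to 2360 TPM in the DMH, 2260 and 2340 TPM in PVH and 1180 to 1860 TPM elsewhere (0.40 ± 0.07, adjusted p = 0.00968). Ghr, the growth hormone receptor, had 7.09 to 9.07 TPM in the DMH and 20.7 to 28.7 TPM in ARH (-0.55 ± 0.12, adjusted p = 0.0365). Bdnf was not called without DMH replicates 2, 3 or 4 (adjusted p = 0.062 to 0.0896), Cpe not without replicate 4 (0.0519), and Ghr kept its call for 5 of the 14 libraries left out. Without the ARH none of the 3 was called, with Bdnf at 0.76, Cpe at 0.34 and Ghr at -0.26 (adjusted p = 0.0615 to 0.439), and Bdnf was not called without LHA (0.0846) nor Ghr without VMH (0.0816).

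Of 190 genes associated with obesity, 183 were tested, 7 were higher and 3 lower, with a median of 0.05, against 2.03% and 0.991% of all genes tested. The counts were 4 and 2 without DMH replicate 2, and edgeR called 16 higher and 5 lower, where it called 4.23% and 2.49% of all genes. Beside Tcf7l2 and Bdnf, the higher genes included Lmx1b, a LIM homeobox factor with 3.78 to 9.43 TPM in the DMH, 4.23 to 7.84 TPM in LHA, 1.49 to 4.97 TPM in ARH and at most 0.77 TPM in VMH and PVH (1.60 ± 0.29, adjusted p = 0.0126). Tal1, a helix-loop-helix factor, had 1.40 to 1.85 TPM in the DMH and at most 1.03 TPM elsewhere (0.79 ± 0.15, adjusted p = 0.0139). Without DMH replicate 4 neither Lmx1b (adjusted p = 0.0538) nor Tal1 (0.0593) was called, and without DMH replicate 1 Tal1 was at 0.0567. Tal1 also lost its call without the ARH (0.0693). The lower genes were Pomc, Sema3a and Ets2, none of them called without the ARH.

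Of 25 circadian clock genes 1 was higher, against 2.03% of all genes tested. It was Rora (0.82 ± 0.17, adjusted p = 0.0263), with 31.7 to 52.7 TPM in the DMH and 67.5 and 51.1 TPM in PVH. It was not called without DMH replicates 1, 2 or 4 or PVH replicate 2 (adjusted p = 0.0567 to 0.0886), nor without the ARH (0.50, adjusted p = 0.324) or VMH (0.60, adjusted p = 0.117). Of 23 tested steroid and thyroid hormone receptors 1 was lower, against 0.991% of all genes tested. That gene was the thyroid hormone receptor Thrb (-0.69 ± 0.13, adjusted p = 0.0138). Thrb was not called without DMH replicate 2 or 4 (0.0534 and 0.0658) nor without the ARH (-0.44, adjusted p = 0.211). None of the 16 immediate early genes was called by limma, edgeR or DESeq2, 1 had an unadjusted p under 0.05 with limma, and their median was -0.04.

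None of the 8 oligodendrocyte, 6 microglia, 6 endothelium and 5 red cell markers was called by limma, edgeR or DESeq2, and at an unadjusted p under 0.05 limma had 1, 1, 4 and 0 of them. Oligodendrocyte markers summed to 3840 to 6040 TPM in the DMH, 1020 to 1710 TPM in ARH and 11000 to 14400 TPM in LHA. The limma counts of called markers that follow stand against 2.03% higher and 0.991% lower over all genes tested. Of 7 astrocyte markers 1 was lower, Gfap (-0.82 ± 0.20, adjusted p = 0.0492), and it kept that call for 3 of the 14 libraries left out and lost it without the ARH (0.152) or LHA (0.0689). Among 7 ependyma and tanycyte markers, the cilia genes Ccdc153 and Tmem212 were higher and the tanycyte genes Rax and Col23a1 lower. Ccdc153 had 49.9, 38, 90.4 and 111 TPM in the DMH, 63.6 and 118 TPM in VMH, 29.5 to 38.2 TPM in ARH and at most 1.93 TPM in LHA (2.02 ± 0.35, adjusted p = 0.0107). It was not called without DMH replicate 4 (0.0523), and Tmem212 (1.70) kept its call for 5 of the 14 libraries left out. Without LHA the difference was 0.80 for Ccdc153 (adjusted p = 0.218) and 0.67 for Tmem212 (0.408), and without the ARH neither was called (0.0518 and 0.1). Rax and Col23a1 lost their calls without the ARH, at -0.44 and -0.14. Of 5 zona incerta markers 1 was higher, Lhx6, and of 6 suprachiasmatic markers 1 was higher, Rgs16, and 2 lower, Six6 and Avp. Without DMH replicate 2 the suprachiasmatic list had 0 higher and 2 lower. Lhx6 was not called without DMH replicates 1, 3 or 4 or PVH replicate 1 (adjusted p = 0.0542 to 0.0926) or the ARH (0.139). Rgs16 was not called without DMH replicate 2 (0.0625) or 4 (0.09), the ARH (0.265) or VMH (0.099). Six6 was at -0.34 without the ARH and not called (0.556), and it was not called by edgeR (0.195) or DESeq2. Pituitary markers, of which 2 of 5 tested were lower (Cga and Pitx1), summed to 1.94 to 3.71 TPM in the DMH and 80.6 to 128 TPM in ARH. Without the ARH, Cga turned to 0.35 and Pitx1 was at -0.12, neither called. edgeR called neither (adjusted p = 0.774 for Cga and 0.0709 for Pitx1), and DESeq2 called 1 pituitary marker lower. The 4 tested choroid plexus markers held no gene called by limma, edgeR or DESeq2 and 2 with an unadjusted p under 0.05. The part of these cell types in the differences was not tested.

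Across the 18 adult regions of the series, some of these genes were not particular to the hypothalamus. Slc17a6, Col11a1 and Sim1 had their highest mean in the DMH, at 190 TPM, 27.9 TPM and 4.17 TPM, with PVH next for Slc17a6 (188 TPM) and Sim1 (3.96 TPM) and the dorsal vagal complex (DVC) next for Col11a1 (23.0 TPM). The gaps of Slc17a6 and Sim1 to PVH were within the spread of the DMH libraries. Npvf, Tcf7l2, Pax7 and Ebf3 ranked 2 of 18, behind VMH for Npvf, behind PVH for Tcf7l2, and behind the parabrachial nucleus (PB) for Pax7 (3.69 TPM) and Ebf3 (26.0 TPM). Nxph3, which separated the DMH within the hypothalamus, ranked 9 of 18, with 60.8 TPM in the entorhinal area (ENT), and Crhbp ranked 3 with 31.9 TPM in ENT.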

How the data were processed

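Libraries were grouped by the region abbreviation in the sample labels. RNA from punches was made into strand-specific mRNA libraries and sequenced as single reads of 33 cycles, with base calling in CASAVA 1.8.2 per the labels. With Kallisto and the cDNA sequences of GRCm38, the authors obtained estimated counts and TPM of each transcript, deposited both, and summed TPM over the transcripts of each gene. TPM is scaled within each library only. Of 109282 transcripts, 98.8% were matched to a gene of the GENCODE M21 annotation (GRCm38), from which coordinates were taken; counts were summed per gene and rounded, and 333 of 32244 gene names whose TPM did not match were dropped from the count tests.

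The gene TPM of 14 libraries was tested with limma 3.58.1 (R 4.3.3) on log2(TPM + 0.5), with a group per nucleus, no covariates, a trend in the variance, and the contrast of the DMH with the mean of the 4 nuclei. Genes with a mean of at least 0.5 TPM over all nuclei, the DMH included, were tested. A gene with low means in the other nuclei could thus be tested only if it was high in the DMH. The p-values were adjusted over all genes tested by Benjamini-Hochberg, with calls at an adjusted p under 0.05. Adding 0.5 understates the changes of low genes. A gene was called against each nucleus when the largest of its 4 pairwise p-values passed after Benjamini-Hochberg adjustment over all genes tested. Genes without the same direction in all 4 could not pass. Intervals and tests cover the spread between pools. On simulated counts with 200 changed genes, limma recovered 96% of 2-fold and 100% of 4-fold changes in this comparison among 15983 genes. It called 15 unchanged genes. The simulation gave unchanged genes the same mean in every nucleus, gave all genes the same dispersion and changed only genes with enough counts. Its shares therefore check the fit and do not give its power for these libraries.

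Alternatives used pseudocounts of 0.1 and 1, no filter or a mean of 1 TPM, edgeR 4.0.16 and DESeq2 1.42.0 on the rounded counts, other scalings, all 57 adult libraries, unweighted libraries, blocks, and libraries or nuclei left out. Same-numbered replicates were not taken as pairs. The genes named are the 12 called genes with the largest change in each direction whose DMH libraries do not overlap the others, the DMH markers, up to 4 called genes per direction of each other list and the first 3 markers of each other nucleus; unnamed gene models were counted only, and a few genes that this rule names are not reported here. Synpo2 was named after its values were seen, as were the genes that DESeq2 called above each nucleus. The comparison and the gene lists were chosen with earlier results of these data known. The remaining libraries were used only for levels across regions and in 1 alternative. Figures were drawn with Python 3.11.15 and matplotlib 3.10.9.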

Additional observations from a re-analysis of the deposited data

Results flagged for a closer look

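Among 93 values tested in the 4 DMH libraries, 3 had a library whose gap to its nearest neighbour exceeded the critical share of the range in Dixon's test at the 95% level, and chance gives about 1 in 20 such groups. Avp was 18.8 TPM in DMH replicate 1 and at most 1.81 TPM in the other DMH libraries. Mc3r was 1.52 TPM in DMH replicate 2 and 2.33 to 2.45 TPM in the others. Sstr1 was 14.6 TPM in DMH replicate 1 and 11.7 to 12.1 TPM in the others.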

How the results depend on the processing

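With 342 higher and 167 lower genes as reported, edgeR called 671 and 395, DESeq2 840 and 491, the fit of all adult libraries 154 and 90, the 10 other libraries as 1 group 5 and 1, and a fold threshold of 1 on the log2 scale 66 and 54. Leaving out a nucleus gave 42 and 11 (ARH), 810 and 441 (PVH) and 407 lower genes (LHA), and leaving out 1 library gave 104 to 320 higher and 56 to 159 lower genes. Leaving out the DMH and VMH libraries numbered 2 together, an alternative chosen after the data were seen, gave 104 lower genes. The replicate block gave 84 higher and 38 lower genes. Of 23 pairs of same-numbered libraries 1 had deviations correlated above 0.1 (median -0.02). Deviations from the mean of so few libraries cancel within each nucleus. These correlations therefore cannot show whether same-numbered libraries shared mice or a batch. Runs of the description numbers as a block changed neither count by over 1.5 times (307 and 135). Division by median-of-ratios size factors moved the share of higher calls from 67.2% to 56.9%.

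The 0 genes above each nucleus became 4 with DESeq2 and 1 without ARH or without VMH, and the 0 below became 2 with DESeq2 and 1 without LHA; leaving out 1 library gave 0 to 0 for both. Genes that differ from at least 1 nucleus numbered 6366, and 3383 with all adult libraries, 3574 without ARH, 4053 without LHA and 1467 with the fold threshold, and 5120 to 6324 with 1 library left out.

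Ppp1r17 turned to 0.03 with edgeR and DESeq2, 0.36 without ARH or VMH, and 0.57 without both libraries numbered 2, and ran from -0.29 to 0.34 with 1 library left out. Prdm13 turned to 0.06 with a pseudocount of 0.1, 0.30 with edgeR, 0.32 with DESeq2, 0.25 without ARH, 0.19 without VMH and 0.29 without both libraries, and ran from -0.36 to 0.17. Ghrh (-0.37) turned to 0.39 without ARH and 0.30 without both libraries, and ran from -0.63 to 0.04. Without ARH, Tbx3 was 0.23, Sox14 0.12, Cga 0.35 and Lhx9 -0.25, and without PVH, Hcrt was -0.21 and Pmch -1.13. Of 69 called genes that the naming rule covers, 33 kept the call without any 1 library. The cause of these changes was not tested.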
